A study of Mus musculus with 2 samples.

Results

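The methionine cycle and one-carbon genes Mat1a, Mat2a, Gnmt, Ahcy, Bhmt, Cbs, Cth, Pemt, Shmt1 and Gldc were followed in hepatocytes of undamaged and regenerating mouse liver. These 10 genes were chosen by name, and all 10 were found among the 27998 genes counted. Partial hepatectomy (PHx) removes most of the liver, and the remaining tissue regrows. Droplet scRNA-Seq was applied to collagenase-isolated hepatocytes. Each droplet has its own barcode, and transcripts are counted by unique molecular identifiers (UMIs). There were 2 libraries from C57BL/6 mice (C57BL/6J in the study's methods) on a normal diet. One came from healthy, undamaged liver (0 h) and the other from liver 48 h after PHx (PHx48h), and the labels give an age of 10 to 12 weeks, where the study's methods give a slightly younger one. The study's methods describe adult male mice and 1 hepatocyte preparation per time point for this assay. With 1 library per group, each difference compares these 2 libraries alone, the spread between mice cannot be seen, and no test was made. All intervals are exact 95% intervals that cover counting error only.

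Barcodes were divided by their mitochondrial share of UMIs, and levels were counted per 1000000 non-mitochondrial UMIs (CPM). The undamaged library held 59202 barcodes, of which 3870 were over 30% mitochondrial and 52587 under 2%. The PHx48h library held 1586 barcodes, of which 765 were over 30% and 522 under 2%. Over 30%, the median depth was 1214 non-mitochondrial UMIs at 0 h and 4411 at 48 h, and under 2% it was 1413 and 5272. The study kept far fewer undamaged cells than there were barcodes, and removed cells of high mitochondrial content without stating its limit. In undamaged barcodes under 2%, thinned to 500 UMIs each, the variance of each member's UMIs was 0.993 to 1.03 times its mean. Across the other sets it was between 0.930 and 1.20 times the mean. Under 2%, the lowest depth was 1162 non-mitochondrial UMIs at 0 h and 4506 at 48 h, close below the medians given above. Over 30% it was 234 and 693. How many of the barcodes under 2% are cells was not tested in either library. The hepatocyte markers, among them Alb and Apoa1, summed to between 99350 and 137700 CPM in the 4 sets. Single markers differed between the times. At 48 h, 3 of 10 were at least 2-fold higher and 0 lower over 30%. Under 2%, 1 was higher and 3 were lower. Of all genes with a mean of at least 10 CPM, 29.0% were higher and 5.30% lower over 30%, and 25.1% and 20.8% under 2%. Kupffer cell, endothelial, and cholangiocyte markers each stayed between 20.7 and 57.0 CPM in every set, and T and NK markers were between 0 and 6.76 CPM. The bile duct marker Krt19 was at 0 in 3 sets, and the endothelial markers Pecam1 and Lyve1 in PHx48h barcodes under 2%. Stellate and stromal markers were 178.6 CPM in PHx48h barcodes under 2%, against 19.9 to 29.2 CPM in the other sets. Erythroid markers were 162.4 CPM in undamaged barcodes under 2%, against 0.784 to 3.98 CPM elsewhere. The nuclear transcripts Malat1 and Neat1 summed to 5964 CPM at 0 h and 3423 CPM at 48 h over 30%, and to 2306 and 2248 CPM under 2%. There were 148 barcode sequences present in both libraries. The part of these differences in the results below was not tested, except where values without the barcodes concerned are given.

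In the methionine cycle, methionine adenosyltransferase makes S-adenosylmethionine, the methyl donor of the cell. Mat1a encodes the catalytic subunit typical of adult hepatocytes, and Mat2a the one used by most other cells and by dividing or fetal hepatocytes. Gnmt and Pemt encode abundant hepatic methyltransferases that consume the methyl donor, the first acting on glycine and the second on phosphatidylethanolamine. Ahcy encodes the hydrolase that converts the product to homocysteine. Bhmt returns homocysteine to methionine with betaine, whereas Cbs and Cth carry it to cysteine by transsulfuration. Shmt1, the cytosolic serine hydroxymethyltransferase, and Gldc, a subunit of the mitochondrial glycine cleavage system, feed one-carbon units to folate.

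In the GENCODE M21 annotation of GRCm38 (mm10), all 10 were protein-coding genes. Mat1a lay on the plus strand at chr14:41105035-41124412, and the other 9 on minus strands. Mat2a was at chr6:72432799-72439558, Gnmt at chr17:46725664-46729168, and Ahcy at chr2:155059310-155074497. Bhmt was at chr13:93616675-93637961, Cbs at chr17:31608894-31637238, and Cth at chr3:157894248-157925077. Pemt was at chr11:59970614-60046489, Shmt1 at chr11:60788104-60811718, and Gldc at chr19:30098447-30175429. Shmt1 overlapped Smcr8 on the opposite strand, and 184 bases of its 3′ end were shared with Smcr8, which was between 3.83 and 11.6 CPM in the 4 sets. Over 376 bases the Bhmt 3′ end was 98.1% identical to Gm5096, which was between 1.90 and 15.3 CPM, and Ahcy shared 184 bases with Gm4737, at most 0.519 CPM. Particl and Gm45609 lie opposite Mat2a and Ahcy, and Gm43314 overlaps Cth on its own strand. Cbs shared stretches of 119 to 142 bases with introns retained in Araf, Map3k12 and Ube2e1 transcripts. How such reads were assigned, and whether counting used strand, is not given in the sources used here, and the values of these members carry that uncertainty.

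Promoter sequences from RefSeq (GRCm38.p6) were matched for 8 of the 10 members, not for Mat1a and Cth. Those of Mat2a, Cbs and Shmt1 are shown because these 3 had the largest 48 h to 0 h ratios, among the 8, in barcodes over 30% mitochondrial, and that of Bhmt because Bhmt was the most abundant member under 2%. Each is the 250 bases before the start in RefSeq, from 5′ to 3′ on the minus strand. That start differs from the gene end given above, so that the Shmt1 window lies wholly inside the GENCODE gene, and those of Bhmt, Cbs and Mat2a overlap its edge. Capitals mark the TATA box (TATAAA), the CCAAT box (CCAAT), the GC box (GGGCGG) and the E-box (CACGTG), on either strand, with overlapping matches run together. The windows are chr6:72439557-72439806 for Mat2a, chr17:31637206-31637455 for Cbs, chr11:60811266-60811515 for Shmt1 and chr13:93637759-93638008 for Bhmt.
Mat2a: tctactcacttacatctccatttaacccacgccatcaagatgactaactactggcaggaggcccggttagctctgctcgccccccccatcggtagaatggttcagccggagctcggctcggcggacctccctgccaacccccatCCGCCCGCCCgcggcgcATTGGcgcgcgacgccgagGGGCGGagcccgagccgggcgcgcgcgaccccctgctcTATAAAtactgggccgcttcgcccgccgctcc
Cbs: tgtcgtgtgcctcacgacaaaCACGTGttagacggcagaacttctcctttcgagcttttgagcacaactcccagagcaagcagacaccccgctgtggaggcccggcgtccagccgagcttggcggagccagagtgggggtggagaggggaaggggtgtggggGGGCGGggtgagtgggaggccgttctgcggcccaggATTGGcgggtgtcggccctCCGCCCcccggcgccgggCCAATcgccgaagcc
Shmt1: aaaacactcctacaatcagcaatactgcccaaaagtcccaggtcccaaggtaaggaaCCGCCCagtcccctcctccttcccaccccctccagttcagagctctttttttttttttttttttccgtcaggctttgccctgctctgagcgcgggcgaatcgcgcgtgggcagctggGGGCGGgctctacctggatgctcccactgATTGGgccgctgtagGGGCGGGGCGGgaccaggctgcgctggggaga
Bhmt: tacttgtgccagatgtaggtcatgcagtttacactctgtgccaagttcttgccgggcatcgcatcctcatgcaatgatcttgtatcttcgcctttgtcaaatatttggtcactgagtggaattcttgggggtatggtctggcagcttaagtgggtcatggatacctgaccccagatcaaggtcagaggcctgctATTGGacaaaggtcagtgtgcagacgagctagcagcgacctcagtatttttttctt
Of the 32851 promoters of this length, 12.4% held a TATA box, 33.9% a CCAAT box, 32.7% a GC box and 6.02% an E-box. Mat2a was the only matched member with a TATA box, and it also held 1 CCAAT box, 3 GC boxes and 29 CpG dinucleotides. Cbs held 2 CCAAT boxes, 2 GC boxes, 1 E-box and 21 CpG dinucleotides, and Shmt1 1 CCAAT box, 4 GC boxes and 13 CpG dinucleotides. Bhmt held 1 CCAAT box, no GC box and 5 CpG dinucleotides, near the median of 6 over all promoters. Of the remaining members, Gnmt held 6 CpG dinucleotides, Ahcy 9, Gldc 8 and Pemt 1 and 2 in its 2 listed promoters. Such matches describe letters and not bound sites.

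Levels of the members were compared first. Each UMI is counted near the 3′ end of a transcript, so the counts do not grow with transcript length. In undamaged barcodes over 30% mitochondrial the order was Gnmt (1548 CPM), Bhmt (919), Pemt (743), Mat1a (364), Cth (338), Cbs (189), Gldc (107), Ahcy (94.3), Mat2a (73.4) and Shmt1 (42.2). The intervals of Mat1a and Cth overlapped, as did those of Gldc and Ahcy, and all other neighbours were apart. In PHx48h barcodes over 30% the order began with Gnmt (1320 CPM), Bhmt (1120) and Mat1a (695), followed by Pemt (443), Cbs (367) and Cth (294). Mat2a (105), Ahcy (103), Gldc (97.0) and Shmt1 (92.3) closed it, and each of these overlapped its neighbour. Thus Mat1a passed Pemt and Cbs passed Cth in the order at 48 h. Under 2% mitochondrial, Bhmt led at both times, with 2642 CPM at 0 h and 2162 CPM at 48 h, before Gnmt with 2038 and 1489. All 10 members together took 4418 CPM (4364 to 4472) at 0 h and 4635 CPM (4576 to 4695) at 48 h over 30%, against 7000 CPM (6982 to 7019) and 5346 CPM (5266 to 5428) under 2%.

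**Figure D1:**
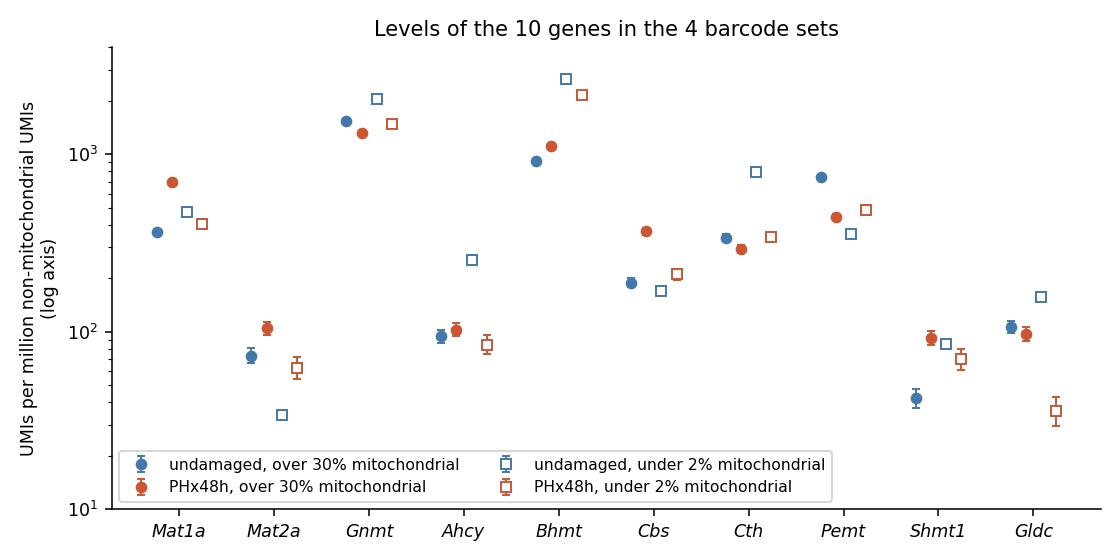
Level of each gene in CPM on a log axis, with 95% Poisson intervals, in barcodes over 30% mitochondrial (filled circles) and under 2% (open squares) of the undamaged and PHx48h libraries. Gnmt and Bhmt are the 2 most abundant members in all 4 sets, and Mat1a is highest in PHx48h barcodes over 30%, at 695 CPM.

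The balance of the methionine adenosyltransferase genes was examined as the Mat1a share of Mat1a plus Mat2a UMIs. Mat1a outweighed Mat2a in all 4 sets. In undamaged barcodes over 30% there were 2105 Mat1a and 424 Mat2a UMIs, a Mat1a share of 83.2% (81.7% to 84.7%). In PHx48h barcodes over 30% there were 3546 and 535 UMIs, a share of 86.9% (85.8% to 87.9%). Under 2%, the undamaged share was 93.4% (93.1% to 93.6%) from 37403 and 2666 UMIs, and the PHx48h share 86.5% (84.7% to 88.2%) from 1266 and 197 UMIs. The share was therefore higher at 48 h than at 0 h over 30%, lower under 2%, and the 2 PHx48h sets overlapped. In UMIs of Mat1a per UMI of Mat2a, these are 4.97 and 6.63 over 30%, and 14.0 and 6.43 under 2%.

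By mitochondrial share, the undamaged Mat1a share was 84.7% (83.0% to 86.3%) in barcodes of 2 to 10%, 87.8% (85.5% to 89.9%) at 10 to 30%, 83.0% at 30 to 50% and 84.0% over 50%. At 48 h the corresponding shares were 66.4% (61.6% to 71.0%), 87.8% (86.2% to 89.2%), 85.3% and 88.1%. The PHx48h bin of 2 to 10% stood lowest. In that bin 84 of 156 barcodes carried at least 0.5% of their non-mitochondrial UMIs from markers of Kupffer, endothelial, stellate, lymphoid or bile duct cells. Over all barcodes with such markers, 535 at 0 h and 102 at 48 h, the Mat1a share was 71.8% (68.7% to 74.9%) and 48.7% (42.0% to 55.4%). These barcodes numbered only 8 and 2 among those over 30%, and without them the shares there stayed within the intervals given above. In them Mat2a was 163 CPM at 0 h and 171 CPM at 48 h, above all 4 sets, and Mat1a was 415 and 162 CPM.

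**Figure D2:**
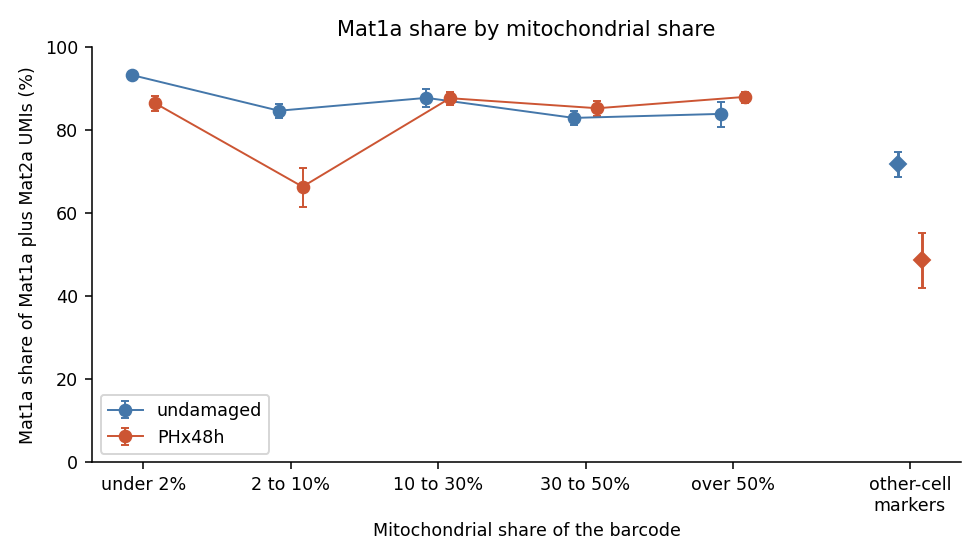
Mat1a share of Mat1a plus Mat2a UMIs, in percent, against the mitochondrial share of the barcodes, with 95% binomial intervals. Diamonds give barcodes with markers of other liver cells. The undamaged share is highest under 2%, at 93.4%, and the PHx48h share is lowest at 2 to 10%, at 66.4%, and in barcodes with other markers, at 48.7%.

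The question of how these genes differ in regenerating liver was addressed within each mitochondrial range. Over 30% mitochondrial, Mat1a, Cbs and Shmt1 were higher at 48 h and Pemt was lower. Mat1a was 364 CPM (349 to 380) at 0 h and 695 CPM (672 to 718) at 48 h, 1.91-fold higher (1.81 to 2.01). Cbs, the first enzyme of transsulfuration, was 189 CPM (178 to 200) and 367 CPM (351 to 384), 1.95-fold higher (1.81 to 2.10). Shmt1 was 42.2 CPM (37.1 to 47.9) and 92.3 CPM (84.1 to 101), 2.19-fold higher (1.87 to 2.56). None of the 3 pairs of intervals overlapped. Pemt was 743 CPM (721 to 766) at 0 h and 443 CPM (425 to 461) at 48 h, a ratio of 0.596 (0.566 to 0.627).

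The other 6 members differed less over 30%. Mat2a was 1.43-fold higher (1.26 to 1.63) and Bhmt 1.22-fold higher (1.17 to 1.27), whereas Gnmt had a ratio of 0.853 (0.826 to 0.880) and Cth of 0.869 (0.812 to 0.930). The intervals for Ahcy (1.09, 0.964 to 1.23) and Gldc (0.907, 0.804 to 1.02) included 1. These ratios stand against a shift of all genes: the median log2 ratio of the 6718 genes with a mean of at least 10 CPM was 0.52, with 1 CPM added to both levels. Against that median, Mat1a (0.93), Cbs (0.96) and Shmt1 (1.11) lay above and the other 7 members below, Mat2a (0.51) only just. Scaling by trimmed means (TMM) moved the median of all genes to -0.04. Under it Mat1a (0.37), Cbs (0.40) and Shmt1 (0.56) stayed above 0 and Pemt (-1.31) below, whereas Mat2a was -0.05 and Bhmt -0.28. Of all genes past 2-fold, 84.6% were higher at 48 h, but only 45.3% under TMM scaling.

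A member was called when its log2 ratio passed a given fold. Over 30%, 1 member (Shmt1) was at least 2-fold higher, where 29.0% of all genes tested were, and no member was at least 2-fold lower, where 5.30% were. At 1.5-fold, 3 members (Mat1a, Cbs and Shmt1) were higher and 1 (Pemt) lower, against 47.2% and 11.2% of genes. The count of higher members was thus not above the background. To match depth, only barcodes of 1500 to 3000 non-mitochondrial UMIs were compared, 1086 at 0 h and 215 at 48 h. In these Mat1a was 377 CPM (352 to 404) and 815 CPM (738 to 898), Cbs 182 CPM and 422 CPM, Pemt 719 CPM and 440 CPM, and Shmt1 46.1 CPM (37.5 to 56.0) and 77.7 CPM (55.3 to 106). The Shmt1 intervals then overlapped, those of the other 3 did not, and the direction of Bhmt (log2 ratio -0.07) and Gnmt (0.10) turned.

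Under 2% mitochondrial, the comparison of 48 h with 0 h gave another set of members. Gldc was 157 CPM (154 to 160) at 0 h and 35.7 CPM (29.4 to 43.0) at 48 h, a ratio of 0.227 (0.187 to 0.274). Ahcy was 253 CPM (249 to 256) and 84.5 CPM (74.6 to 95.3), a ratio of 0.334 (0.295 to 0.377). Cth, the second transsulfuration enzyme, was 794 CPM (788 to 800) and 340 CPM (320 to 361), a ratio of 0.429 (0.403 to 0.455). The intervals of all 3 were far apart. Mat2a was 33.9 CPM (32.6 to 35.2) and 62.8 CPM (54.4 to 72.2), 1.86-fold higher (1.60 to 2.15), and Pemt was 1.38-fold higher (1.31 to 1.45). The remaining ratios were 0.850 for Mat1a, 0.731 for Gnmt, 0.818 for Bhmt, 1.25 for Cbs and 0.815 for Shmt1.

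Here 3 members (Ahcy, Cth and Gldc) were at least 2-fold lower, where 20.8% of genes were, and none was at least 2-fold higher, where 25.1% were. At 1.5-fold the same 3 were lower and Mat2a higher, against 31.1% and 35.9%. The median log2 ratio of all 5716 genes was 0.09, and TMM scaling moved it to -0.27, Mat2a from 0.87 to 0.54 and Cbs from 0.32 to -0.02. The share of higher genes among those past 2-fold was 54.6%, and 36.8% under TMM scaling. Mat1a, Bhmt and Shmt1 were thus higher at 48 h over 30% and lower under 2%, and Pemt the reverse. Bhmt was an exception under TMM scaling, where it was lower in both ranges. No replicate allowed a test of the difference between the ranges, and how many barcodes under 2% are cells was not tested.

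**Figure D3:**
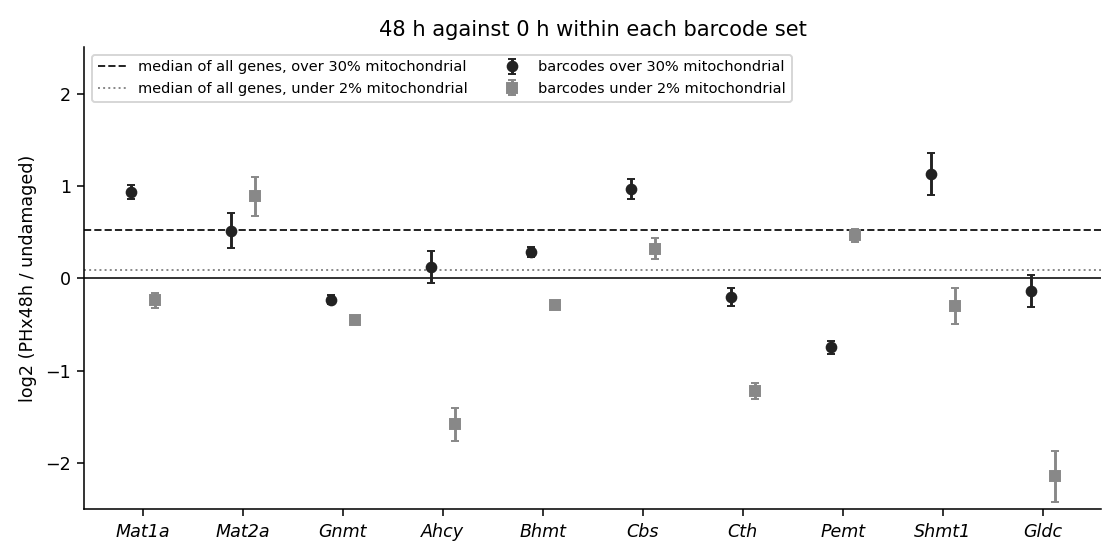
Log2 ratio of PHx48h to undamaged CPM for each gene, with no CPM added and 95% intervals, in barcodes over 30% mitochondrial (circles) and under 2% (squares). Dashed and dotted lines give the median of all genes tested, 0.52 and 0.09. Mat1a, Cbs and Shmt1 lie above the dashed line, and Ahcy, Cth and Gldc under 2% lie lowest.

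The mitochondrial ranges were next compared within each library. In the undamaged library, Mat2a was 73.4 CPM over 30% and 33.9 CPM under 2%, 2.17-fold higher (1.95 to 2.40). Pemt was 743 and 354 CPM, 2.10-fold higher (2.03 to 2.17). Bhmt was 919 and 2642 CPM, a ratio of 0.348 (0.338 to 0.357), and Ahcy, Cth and Shmt1 had ratios of 0.373, 0.426 and 0.493. So 2 members were at least 2-fold higher over 30%, where 10.7% of the 5781 genes were, and 4 were at least 2-fold lower, where 10.1% were. At 1.5-fold the same members were called, against 20.7% and 25.0%. Shmt1, with a log2 ratio of -1.0, lay at the limit of 2-fold and passed or missed it with small changes of the barcodes used. TMM scaling left no member 2-fold higher, with log2 ratios of 0.93 for Mat2a and 0.90 for Pemt. Of all genes past 2-fold 51.5% were higher over 30%, and 34.9% under TMM scaling.

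In the PHx48h library the ranges differed in other members. Gldc was 97.0 CPM (88.6 to 106) over 30% and 35.7 CPM (29.4 to 43.0) under 2%, 2.72-fold higher (2.21 to 3.36). Mat1a (1.72-fold), Cbs (1.75-fold) and Mat2a (1.67-fold) were also higher over 30%, and Bhmt was lower, at a ratio of 0.518 (0.50 to 0.537). Only Gldc was at least 2-fold higher, where 29.0% of the 6563 genes were, and none was at least 2-fold lower, where 7.09% were. At 1.5-fold 4 were higher and 1 lower, against 45.7% and 17.5%. Of all genes past 2-fold 80.4% were higher over 30%, and 38.5% under TMM scaling. The median of all genes was 0.47, and when all UMIs, mitochondrial ones included, were used as the total, Mat1a, Mat2a and Cbs were lower over 30%. Gldc fell short of 2-fold with TMM scaling (log2 ratio 0.91) and with that total (0.31). Bhmt was lower over 30% in both libraries, under every scaling tried.

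Single barcodes were examined after thinning each to 500 non-mitochondrial UMIs, which left out 75 undamaged barcodes over 30% and none in the other sets. A Mat1a UMI was found in 29.3% (26.1% to 32.7%) of PHx48h barcodes over 30% and in 24.3% (20.7% to 28.3%) of those under 2%, against 9.80% (4.80% to 17.3%) of barcodes with other-cell markers. Before thinning, at median depths of 4411, 5272 and 5950, these were 89.7%, 88.1% and 66.7%. In the undamaged library the share was 17.2% over 30% and 21.2% under 2%, against 17.9% (14.8% to 21.5%) with other-cell markers, and 37.8%, 49.7% and 63.0% before thinning at median depths of 1214, 1413 and 2362. By the thinned share, undamaged Mat1a was thus not separated from the barcodes with other-cell markers in either range. Those barcodes are not free of hepatocyte transcripts, as hepatocyte markers summed to 58330 CPM in them at 0 h. Thinned to 1000 UMIs, the Mat1a share under 2% was 29.9% (26.0% to 34.0%) at 48 h and 37.4% (36.9% to 37.8%) at 0 h. This reverses the order at 500, and the levels were 404 and 475 CPM.

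Mat2a shares after thinning were 2.90% over 30% and 1.70% under 2% at 0 h, and 6.41% and 3.83% at 48 h, none above those of barcodes with other-cell markers, 6.54% and 6.86%. Pemt was separated more clearly over 30%, with 32.7% (31.2% to 34.3%) of undamaged barcodes against 9.72% (7.34% to 12.6%), and 62.8% against 42.1% before thinning. In undamaged barcodes under 2% the Pemt share was 16.1% (15.8% to 16.4%) after thinning. Before thinning it was 40.1%, below the 42.1% of the deeper barcodes with other-cell markers. After thinning, the variance of Mat1a UMIs was 0.980 to 1.08 times their mean in the 4 sets, and that of Mat2a 1.0 to 1.09 times. In barcodes with at least 5 UMIs of both genes together, the median Mat1a share was 83.3% (28 barcodes) and 90.0% (315) over 30% at 0 h and 48 h, with a lowest barcode of 20% and 33.3%. Over 30%, 1660 of 3870 undamaged and 708 of 765 PHx48h barcodes held a UMI of either gene, at the depths given above, and Mat2a outnumbered Mat1a in 208 and 35 of them.

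Hepatocytes differ along the portal to central vein axis, and barcodes were therefore divided into 3 groups of equal size by the share of periportal genes (such as Cyp2f2 and Hal) over periportal plus perivenous genes (such as Cyp2e1 and Glul), given at least 10 such UMIs. No member was in either list. Over 30%, each group held 703 of the 3870 undamaged barcodes, and 247 or 248 of 765 at 48 h. The median periportal share of the perivenous and periportal groups was 6.90% and 75.0% at 0 h, and 30.7% and 88.0% at 48 h. Under 2% it was 22.6% and 43.8% at 0 h, and 40.0% and 63.7% at 48 h. The groups thus cover different ranges of the score at the 2 times, and the part of this in the ratios was not tested. Gldc had the steepest difference. Over 30% it was 55.9 CPM (42.2 to 72.6) in the perivenous, 117 CPM (99.6 to 136) in the middle and 137 CPM (120 to 155) in the periportal group of the undamaged library, a ratio of 2.44 (1.82 to 3.33) between the outer groups. At 48 h the same groups gave 36.1 CPM (26.3 to 48.3), 97.9 CPM (83.0 to 115) and 130 CPM (115 to 145), a ratio of 3.60 (2.62 to 5.04). Under 2% the ratio was 1.01 (0.963 to 1.05) at 0 h and 0.690 (0.438 to 1.08) at 48 h.

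Gnmt and Pemt leaned to the perivenous side over 30%. The periportal to perivenous ratio of Gnmt was 0.723 (0.679 to 0.769) at 0 h and 0.808 (0.762 to 0.858) at 48 h, and that of Pemt 0.823 (0.751 to 0.903) and 0.754 (0.681 to 0.834). Under 2% at 48 h the Gnmt ratio was 1.09 (1.01 to 1.17), but the scores of those groups lay closer together, at medians of 40.0% and 63.7%. Mat1a over 30% was on opposite sides in the libraries, at 0.855 (0.752 to 0.973) at 0 h and 1.13 (1.03 to 1.23) at 48 h. Mat2a was 154 CPM (133 to 177) in the perivenous group at 48 h, against 87.0 CPM (73.0 to 103) in the middle and 89.7 CPM (77.7 to 103) in the periportal group. A single barcode held 19 of those 192 perivenous Mat2a UMIs, and without it the level was 141 CPM (121 to 164). The Mat1a share followed, at 81.0% (78.4% to 83.3%) in the perivenous and 89.1% (87.6% to 90.5%) in the periportal group. At 0 h the Mat2a ratio of 0.826 (0.632 to 1.08) included 1. Cbs had a ratio of 1.28 (1.13 to 1.44) at 48 h. In undamaged barcodes under 2% all 10 ratios lay between 0.970 and 1.08. The scores of the groups under 2% lay close together at both times, so the ratios under 2% say little about zonal differences. The depth of the groups differed, with medians of 3708 and 6782 non-mitochondrial UMIs in the perivenous and periportal group over 30% at 48 h, and 1301 and 1996 at 0 h.

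**Figure D4:**
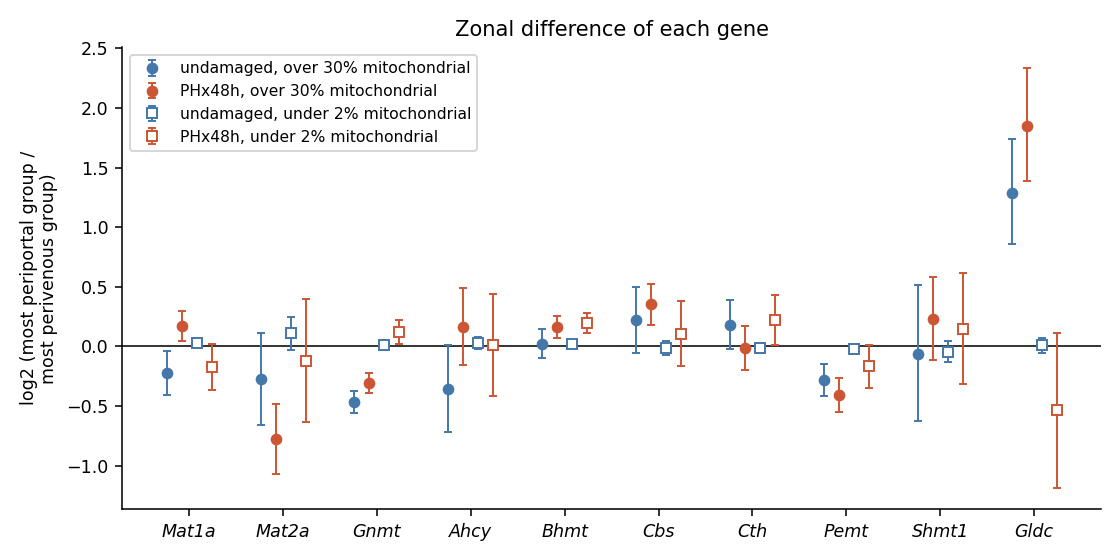
Log2 ratio of each gene between the most periportal and the most perivenous group of barcodes, with 95% intervals, in the 4 sets. Gldc over 30% mitochondrial stands highest, at ratios of 2.44 (undamaged) and 3.60 (PHx48h), and all undamaged squares lie near 0. The groups behind all squares, of both libraries, have scores that lie close together.

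The members were then set against proliferation at 48 h. From a list of 15 proliferation genes, such as Mki67 and Top2a, Tyms was left out because it is also a folate gene. Barcodes were divided by the UMIs of the others after thinning to 500. Over 30% mitochondrial, 60 barcodes had at least 2 such UMIs and 541 had none. Before thinning these groups held 2255 and 521 CPM of the proliferation genes, so the second was not free of them. These totals include the UMIs that made the split, so their order is no check of it. Mat2a was 182 CPM (146 to 224) in the former and 94.2 CPM (84.4 to 105) in the latter, 1.93-fold higher (1.51 to 2.44). Mat1a was 531 CPM (468 to 599) and 727 CPM (700 to 756), a ratio of 0.730 (0.640 to 0.829). The Mat1a share was 74.5% (69.6% to 79.0%) with at least 2 proliferation UMIs, 86.2% (83.6% to 88.6%) with exactly 1 and 88.5% (87.3% to 89.7%) with none. Without the barcode that held 19 Mat2a UMIs, the first of these was 77.2% (72.1% to 81.8%) and Mat2a 150.0 CPM (117 to 190).

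Bhmt was 1.23-fold higher (1.13 to 1.33) in the former barcodes and Gnmt had a ratio of 0.904 (0.828 to 0.985), whereas the intervals of the other 6 members included 1. Markers of other liver cells summed to 223 CPM and 167 CPM in the barcodes with at least 2 and with none after thinning, and their part was not tested. Under 2% mitochondrial, 43 barcodes had at least 2 UMIs and 302 had none. The same totals, which again include the UMIs that made the split, were 1916 and 793 CPM. The ratios between these groups were 1.01 (0.821 to 1.24) for Mat1a, 1.10 (0.605 to 1.88) for Mat2a and 1.12 (1.03 to 1.22) for Bhmt.

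Other genes of these pathways were described from 8 lists of 61 genes, over 30% mitochondrial at 48 h against 0 h. All lists are to be read against the 29.0% of genes at least 2-fold higher, the 5.30% at least 2-fold lower and the median of 0.52. These values cover all genes tested, including those that passed only through 1 time. No share was computed for genes with at least 10 CPM at both times, so list counts of such genes have no matched background. A gene under 10 CPM at 0 h could pass the filter only through its level at 48 h and so had to be higher, and such genes are named as descriptions. In S-adenosylmethionine and homocysteine turnover, 2 of 7 tested genes were at least 2-fold higher and none lower, with a median of 0.78. Gss, which completes glutathione, was 27.7 CPM at 0 h and 216 CPM at 48 h, 7.81-fold higher (6.61 to 9.28), and Adk, the adenosine kinase that clears a product of Ahcy, was 128 and 282 CPM. Betaine and choline oxidation had a median of -0.17, with 1 of 5 genes higher, Aldh7a1 (135 and 292 CPM).

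Of the folate one-carbon enzymes, 7 of 15 had at least 10 CPM at both times, and 1 of these was higher and none lower. The thymidylate synthase gene Tyms (2.60 and 43.7 CPM), on the proliferation list but left out of the split above, passed only through 48 h. Of the partners of Gldc in glycine cleavage, Dld was higher (28.2 and 69.6 CPM), and the 3 had a median of 0.87. Of the other methyltransferases, 8 of 9 had at least 10 CPM at both times, and 5 of these were higher and 1 lower. Tpmt was 13.3 and 57.8 CPM and As3mt 10.0 and 38.8 CPM, and Dnmt1 (6.58 and 18.4 CPM) passed only through 48 h.

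In cysteine and sulfur disposal, 2 of 8 genes were higher and 2 lower, with a median of 0.17. Sqrdl, which oxidizes sulfide, was 29.9 and 146 CPM, and Tst 135 and 322 CPM. Cdo1, the cysteine dioxygenase, was 326 and 154 CPM, and Csad, which follows it toward taurine, 122 and 47.2 CPM. Of the methionine salvage and polyamine genes, 5 of 9 had at least 10 CPM at both times, and 3 of these were higher and none lower. Srm was 14.0 and 61.3 CPM and Odc1, which starts polyamine synthesis, 42.1 and 129 CPM. Apip (4.15 and 18.6 CPM) and Mtap (5.71 and 17.6 CPM) passed only through 48 h, as did Psph (1.38 and 26.4 CPM), the only one of 3 serine synthesis genes that passed.

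**Figure D5:**
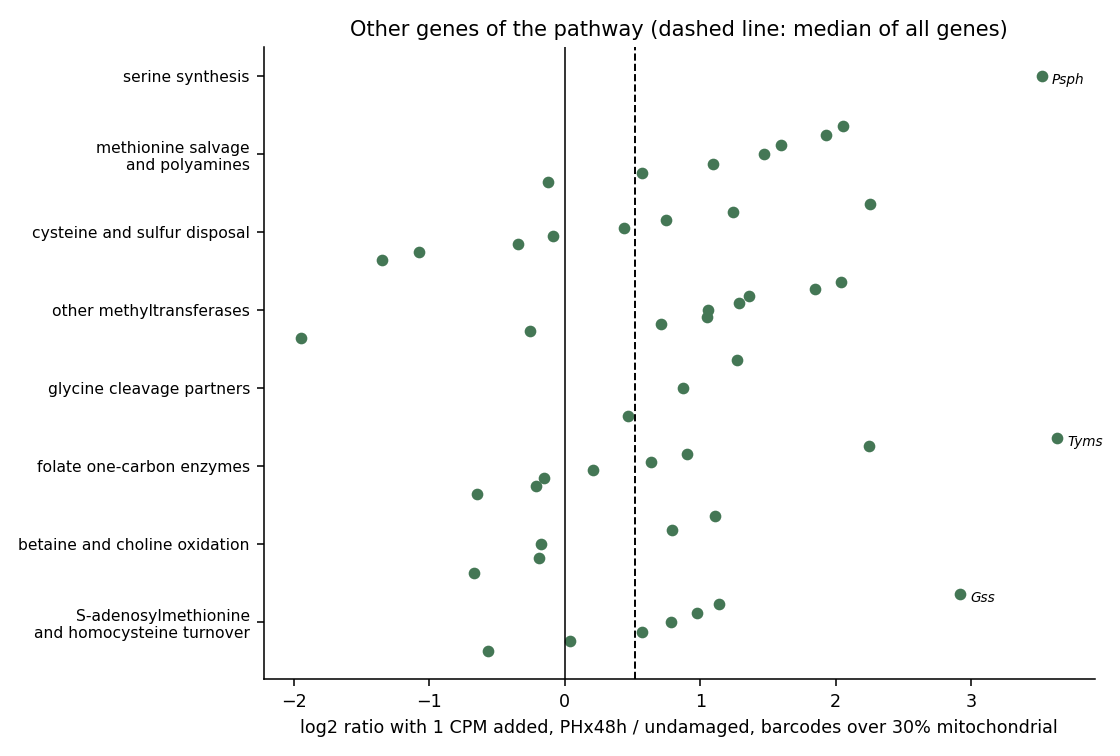
Log2 ratio of PHx48h to undamaged CPM, with 1 CPM added, in barcodes over 30% mitochondrial for the genes of 8 pathway lists with a mean of at least 10 CPM, 1 point per gene. The dashed line gives the median of all genes, 0.52. Psph, Tyms and Gss, which are labelled, lie farthest to the right. Of these, Psph and Tyms were under 10 CPM at 0 h.

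Genes with the most similar pattern were sought over 10 points, the 5 mitochondrial bins of both libraries, by the distance between centred log2 levels among 2284 genes of at least 50 CPM on average. Nearest to Mat1a were Gk (0.49), Ttc38 (0.54) and Shmt2 (0.55), where the median distance of all genes was 2.31. Gk encodes glycerol kinase and Shmt2 the mitochondrial serine hydroxymethyltransferase. Nearest to Mat2a were Sfpq (0.45), Rbm39 (0.46) and Tra2b (0.72), where the median was 2.49. All 3 encode RNA-binding proteins linked to splicing. Each of these 3 was lowest in undamaged barcodes under 2%, and highest in the PHx48h bin of 2 to 10%, where Mat2a itself was 137 CPM. The 3 genes nearest to Mat1a were lowest in that same bin. There, 84 of 156 barcodes carried markers of other liver cells, and their part in the distances was not tested.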

How the data were processed

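The authors prepared 10X Genomics Single Cell RNA version 2 libraries and processed the reads with Cell Ranger on mm10, as named in the submitters' processing notes, at a version not given in the sources used here. The deposited values were whole UMI counts per gene and barcode without normalization. Totals were 96118593 UMIs at 0 h and 18198719 at 48 h. Bulk and chromatin accessibility data of the study were not analysed here.

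The 13 mitochondrial genes were used to divide barcodes and were left out of all totals. Counts were summed per barcode set and given as CPM with exact Poisson intervals, ratios with exact conditional binomial intervals, and shares with Clopper-Pearson intervals (95%). Log2 ratios had 1 CPM added. Genes with a mean of at least 10 CPM were tested, and called at 2-fold. All 10 members are named. From each pathway list up to 4 called genes with the largest log2 ratio are named, except 2 genes that are not reported here, and for Mat1a and Mat2a the 3 nearest genes. The members and lists were chosen with earlier results of these data known. No doublet caller was run; leaving out the deepest 1% of barcodes was an alternative. The contrast functions were checked on simulated counts. Analyses used Python 3.11.15, numpy 2.4.6, scipy 1.17.1, pandas 2.3.3 and, for TMM factors only, edgeR 4.0.16 in R 4.3.3.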

Additional observations from a re-analysis of the deposited data

Results flagged for a closer look

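The log2 ratio of 48 h to 0 h had opposite directions over 30% and under 2% mitochondrial for 4 members, and the difference between the ranges (over 30% minus under 2%) was not tested. It was 1.16 for Mat1a (0.93 and -0.23), 0.57 for Bhmt (0.29 and -0.29), -1.21 for Pemt (-0.75 and 0.46) and 1.40 for Shmt1 (1.11 and -0.29). With TMM scaling Bhmt over 30% was -0.275, and so lower at 48 h in both ranges. Under 2% the undamaged library held 162.4 CPM of erythroid markers and the PHx48h library 178.6 CPM of stellate and stromal markers, and their part in these differences was not tested.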

How the results depend on the processing

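Depth and replicates set the limits here: 1 library stood for each group, and 522 to 52587 barcodes for each set. Of 580 log2 ratios of members under the alternatives, 419 stayed within the counting interval of the reported value, 145 moved beyond it, and 16 turned sign where that interval had excluded 0. The causes of these moves were not tested. The depth limits, and the removal of the barcode with most Mat2a UMIs, were chosen after seeing the data. No PHx48h barcode under 2% had 1500 to 3000 non-mitochondrial UMIs, so that alternative gave no value there. No paired analysis was possible because each group had 1 library and no test was made.

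At 48 h against 0 h over 30%, the count of members at least 2-fold higher (1) was 3 over 50% mitochondrial and at 1.5-fold, 2 in barcodes of 1500 to 3000 non-mitochondrial UMIs, and 0 with at least 1000 non-mitochondrial UMIs, TMM scaling, the 20 most abundant genes left out, all UMIs as the total, or a pseudocount of 10 CPM. The count lower (0) was 1 with TMM scaling, all UMIs as the total, or 1.5-fold. Under 2%, the count higher (0) was 1 under 5% mitochondrial and at 1.5-fold. In the undamaged library, the count higher over 30% (2) was 1 over 20% mitochondrial and with a pseudocount of 10 CPM, and 0 with TMM scaling or all UMIs, and the count lower (4) was 7 with all UMIs as the total. That count was 3, without Shmt1, over 20%, under 1% and under 5% mitochondrial, with at least 1000 non-mitochondrial UMIs, without the deepest 1% of barcodes or the 20 most abundant genes, with a pseudocount of 10 CPM, and in the depth-matched barcodes. In the PHx48h library the count higher (1) was 4 at 1.5-fold and 0 with TMM scaling or all UMIs, and the count lower (0) was 1 over 50% mitochondrial, with TMM scaling and at 1.5-fold, and 4 with all UMIs.

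The Mat1a share was 88.1% in PHx48h barcodes over 50% mitochondrial. Under 5% it was 93.0% at 0 h and 83.5% at 48 h, and in undamaged barcodes under 2% of 1500 to 3000 non-mitochondrial UMIs it was 93.8%. The other 35 of 39 shares stayed within their intervals.

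Among ratios whose interval excluded 1, directions turned as follows, in log2 ratios. Of those whose interval included 1, Ahcy over 30% at 48 h against 0 h turned under 4 alternatives (lowest -0.434) and Gldc under 2 (highest 0.094). At 48 h against 0 h over 30%, Cth was 0.053 over 50% mitochondrial, Mat2a -0.046 and Bhmt -0.275 with TMM scaling, and Gnmt 0.095 and Bhmt -0.065 in the depth-matched barcodes. Under 2%, Cbs was -0.023 with TMM scaling. Over 30% against under 2% at 0 h, Cbs was -0.003 with TMM scaling and -0.701 with all UMIs. At 48 h, Ahcy was -0.23 and Shmt1 -0.109 with TMM scaling, and Gnmt 0.018 as a mean of single barcodes. With all UMIs as the total, Mat1a was -0.345, Mat2a -0.383, Ahcy -0.834, Cbs -0.323 and Shmt1 -0.713.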

Other observations

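The pathway lists were also counted under 2% mitochondrial at 48 h against 0 h, where the median of all genes was 0.09, 25.1% of genes were at least 2-fold higher and 20.8% at least 2-fold lower. Betaine and choline oxidation was lower in 2 of 5 genes, with a median of -0.45. Sardh, which oxidizes sarcosine made by Gnmt, was 1363 CPM at 0 h and 179.8 CPM at 48 h, and Dmgdh 411 and 93.4 CPM. Over 30% the corresponding values were 1043 and 656 CPM for Sardh, and 156 and 138 CPM for Dmgdh. Of the folate one-carbon enzymes, 7 of 15 had at least 10 CPM at both times, and 1 of these was higher and 4 were lower, among them Fpgs (95.2 and 27.4 CPM). The shares of all genes given above are not matched to this stricter filter. Tyms (3.30 and 76.5 CPM) passed only through its level at 48 h. Csad (241 and 31.9 CPM) and Cdo1 (587 and 272 CPM) were lower at 48 h in both mitochondrial ranges. Under 2%, Gss was 25.7 and 127.9 CPM, and so higher at 48 h in both ranges. Psph (2.92 and 49.4 CPM) passed only through its level at 48 h.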
